A study of Homo sapiens with 3 samples.

Results

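The regions described here were the peaks of the minimum width, 100 bp, on chromosomes 1 to 22 that shared no base with any peak of the other condition in a ChIP-seq experiment on p300/CBP. They were chosen by measured values, namely their own width and the presence of a peak in the other list, so neither their width nor their lack of overlap is a finding. In the control list, 66100 of 82901 peaks were such members (79.7%), and in the list made after Fra-1 knockdown 25496 of 39320 (64.8%), out of 122221 peaks in both lists. Members made up 96.3% of all 68641 autosomal peaks of 100 bp in siCTL and 93.5% of 27254 in siFra-1.

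The study asked whether Fra-1 influences the presence of p300/CBP on chromatin. MDA-MB-231 cells, an established line of triple-negative, basal B breast cancer, received siRNA at 4.5 nM for 72 h, either a control (siCTL) or 3 siRNAs mixed that target Fra-1 (siFra-1). Chromatin fixed for 7 min, as the labels state (the methods text gives another time), was precipitated with an antibody against p300/CBP. Each condition was 1 library made from pooled immunoprecipitations, so there were no replicates, no test across conditions was possible, and all intervals below are 95% intervals that cover counting error only. An input sample of the same line was not analysed here, and the number of reads behind each list is unknown, since the lists hold positions alone. The amount of Fra-1 in the siFra-1 cells was not measured by these lists.

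p300 and CBP are related lysine acetyltransferases that are brought to promoters and enhancers by transcription factors and acetylate histones there. Fra-1, the product of FOSL1, is a Fos family protein. With a Jun partner it makes up AP-1, which binds the palindrome-like sites TGAGTCA and TGACTCA. The MDA-MB-231 genome is aneuploid, with gains and losses of whole arms and of parts of arms, and is known to lack CDKN2A on 9p. In ChIP-seq, the number of reads from any stretch also depends on how much of its DNA the cells hold. DNA copy number was not measured in the lists analysed here, and its part in the densities below was not tested.

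Members from the stretches of highest and lowest siCTL density, described below, are printed as examples. They are given on the plus strand of hg19, and capitals mark an AP-1 site, searched as TGAGTCA or TGACTCA, which are each other's reverse complement, so both strands were covered. The members were those closest to the middle of the segment, or closest among those that held an AP-1 site. Every printed member with a site was picked for holding one, so the sites shown do not give their frequency. In the dense stretch of 20q, a site was held by 2.35% of siCTL and 1.81% of siFra-1 members. In the sparse stretch of 18q these shares were 7.06% and 9.38%. A member of each list from 20q is printed first, the siCTL one closest to the middle and the siFra-1 one closest among those with a site.
siCTL, chr20:40511652-40511751, between genes: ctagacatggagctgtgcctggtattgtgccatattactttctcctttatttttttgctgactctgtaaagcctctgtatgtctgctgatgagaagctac
siFra-1, chr20:39687252-39687351, intron of TOP1: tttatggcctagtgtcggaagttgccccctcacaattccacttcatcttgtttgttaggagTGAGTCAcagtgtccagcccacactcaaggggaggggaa

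The siFra-1 member in TOP1 lay 1350 bp from the nearest siCTL peak. In the sparse stretch of 18q, the distance from a shown member to the nearest peak of the other list was between 284050 and 451250 bp.
siCTL, chr18:60001502-60001601, intron of TNFRSF11A: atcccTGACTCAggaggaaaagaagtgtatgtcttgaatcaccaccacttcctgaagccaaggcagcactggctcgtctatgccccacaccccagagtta
siFra-1, chr18:60548952-60549051, intron of PHLPP1: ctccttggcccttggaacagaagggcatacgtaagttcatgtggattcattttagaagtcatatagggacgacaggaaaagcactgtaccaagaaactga
siFra-1, chr18:60479702-60479801, intron of PHLPP1: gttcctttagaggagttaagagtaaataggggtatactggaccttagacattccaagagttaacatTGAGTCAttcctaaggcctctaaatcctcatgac

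The siFra-1 list held 0.386 members (0.380 to 0.391) for each siCTL member. Neighbouring siCTL members had a median spacing of 21.3 kb, while that of siFra-1 members was 49.3 kb, and the members together covered 6.61 and 2.55 Mb. Among siCTL members, 67.8% had no siFra-1 peak within 10 kb and 4.23% had one within 500 bp. For siFra-1 members these shares were 39.9% and 10.4%. These shares depend on the size of the other list, which was 39320 peaks for siCTL members and 82901 for siFra-1 members, and are not comparable between the lists. Just inside the rule, 500 siCTL and 455 siFra-1 members touched a peak of the other list without sharing a base, and a further 385 and 373 were separated from one by up to 50 bp. Just outside it, 2541 siCTL and 1758 siFra-1 peaks of 100 bp shared at least 1 base with the other list, and of the peaks of the next width, 150 bp, 82.7% in siCTL and 77.2% in siFra-1 were unshared.

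Members were unevenly spread over the chromosome arms, and both lists were high and low on nearly the same arms. Among the 39 arms with at least 5 Mb of sequence, 20q was highest, with 59.8 siCTL members per Mb (57.2 to 62.5) and 25.4 siFra-1 members per Mb (23.8 to 27.2). In siCTL it was followed by 6p (44.1 per Mb) and 19p (40.9 per Mb), which had 17.7 and 18.1 siFra-1 members per Mb. The lowest arm in both lists was 18q, with 6.56 siCTL members per Mb (5.93 to 7.25) and 2.19 siFra-1 members per Mb (1.83 to 2.60). It was followed in siCTL by 7q (10.6 per Mb) and 9p (11.8 per Mb), which had 4.05 and 4.67 siFra-1 members per Mb. From the lowest to the highest arm, density differed 9.11-fold in siCTL (8.17 to 10.2) and 11.6-fold in siFra-1 (9.63 to 14.1), and the intervals of 20q and 18q did not overlap in either list.

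The short and long arm of a chromosome could also differ. On chromosome 18, the short arm held 33.5 siCTL and 14.0 siFra-1 members per Mb, against 6.56 and 2.19 on the long arm. Of the 10 densest arms in siCTL, 9 were also among the 10 densest in siFra-1, and 9 of the 10 least dense were shared as well. The ratio of siFra-1 to siCTL members moved far less than the densities, from 0.325 on 13q to 0.442 on 19p. Its interval held the ratio of all autosomes on 33 arms, lay below it on 13q (0.294 to 0.360), 2q and 3q, and lay above it on 19p (0.394 to 0.495), 19q and 20q. Arm counts include members beside large assembly gaps, where the ratio was 0.745. In the segments described below, which leave these members out, 19p had 0.424 (0.377 to 0.477), which held the ratio of all autosomes. On 19q, chr19:33000001-59000000 also held it, at 0.401 (0.359 to 0.447). The smaller chr19:29000001-33000000 lay above it, at 0.613 (0.415 to 0.897).

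**Figure D1:**
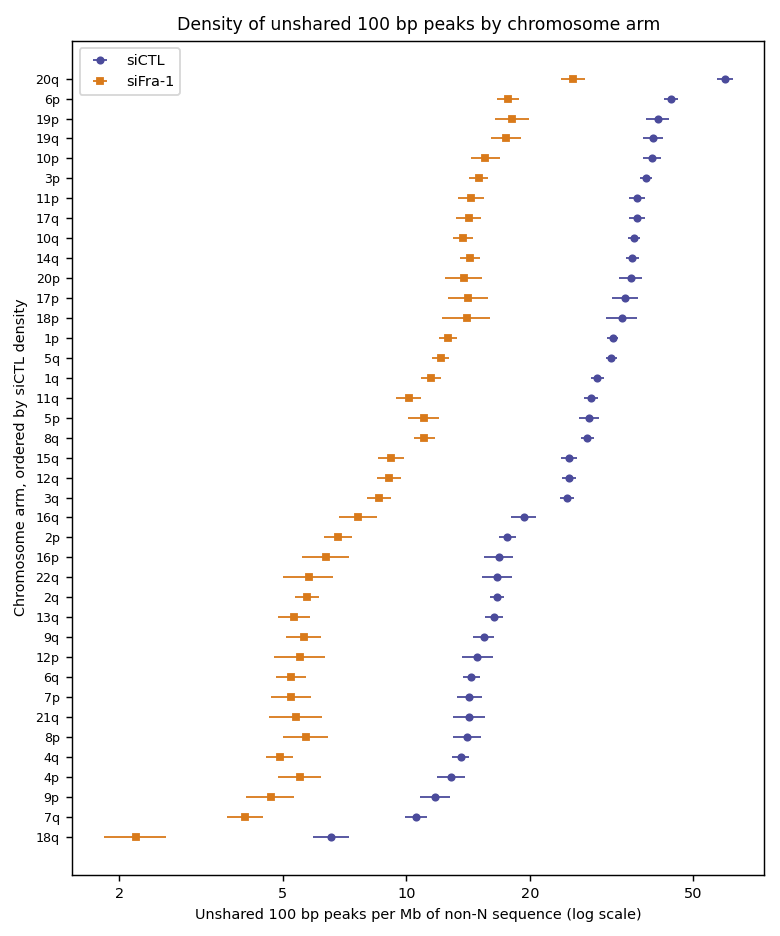
Unshared 100 bp peaks per Mb of sequence on the 39 chromosome arms (x axis, log scale), ordered by siCTL density (y axis), for siCTL (circles) and siFra-1 (squares), with exact Poisson intervals as bars. Both lists run from 18q, at 6.56 and 2.19 per Mb, to 20q, at 59.8 and 25.4 per Mb.

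At a finer scale, the genome was divided into bins of 1 Mb, of which 2669 had at least 80% known bases. The median bin held 20 siCTL and 7 siFra-1 members per Mb. From the 5th to the 95th percentile of bins, siCTL density ran from 5 to 55 and siFra-1 density from 1 to 24 per Mb, and the highest bins reached 105 and 58. Bins with no member numbered 12 in siCTL and 88 in siFra-1. The exact Poisson interval of a count of 20 was 12.2 to 30.9, and that of a count of 7 was 2.81 to 14.4, so the spread between bins was wider than counting error, with a variance 10.9 and 6.10 times the mean.

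Bins at or above 1.5 times the median of their list were called dense and bins at or below 0.5 times the median sparse. In siCTL 852 bins were dense (31.9% of all bins) and 494 sparse (18.5%). In siFra-1 915 bins were dense (34.3%) and 628 sparse (23.5%). Dense bins held 57.5% of the siCTL members and 65.1% of the siFra-1 members in bins. The lists shared 703 dense bins, which were 82.5% of those of siCTL and 76.8% of those of siFra-1, and 330 sparse bins, which were 66.8% and 52.5%. Only 2 bins that were dense in siCTL were sparse in siFra-1, and 1 bin that was sparse in siCTL was dense in siFra-1. Over all bins, the densities of the lists had a Spearman rho of 0.832 and a Pearson r of 0.842, as a description without a test, because bins share base composition and the members of a list share a library.

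Dense and sparse bins were not scattered but formed long runs. Change points placed by the siCTL members alone divided the 39 arms into 74 segments over 2628 bins, with bins beside large assembly gaps left out. By the thresholds used for single bins, 34 segments were dense, 36 were in between and 4 were sparse. The siCTL levels of segments were put in groups, by limits not fixed in advance. In these, 27 segments with 50.7% of the sequence lay between 10.6 and 18.8 members per Mb, and 35 segments with 40.7% of the sequence lay between 26.7 and 47.4. A single segment, at 23.8 on 3p, fell between these ranges. Above them, 7 segments reached from 50.8 to 74.1 per Mb, and below them 4 segments had under 10. The lowest of the upper group, at 50.8, lay close to the 47.4 beneath it, so no clear break separated these groups.

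The siFra-1 members, which were not used to place the segments, followed the same levels. Over the 74 segments, the densities of the lists had a Spearman rho of 0.979. When each bin was divided by the mean of its segment, rho over bins went from 0.832 to 0.440, so the part of the likeness that was seen within segments was smaller. Compared with the segments in between, dense segments held 2.52 times as many siCTL members per Mb and 2.80 times as many siFra-1 members, and sparse segments 0.198 and 0.193 times as many. The ratio of siFra-1 to siCTL members was 0.391 (0.384 to 0.398) in dense segments, 0.351 (0.342 to 0.360) in the segments in between and 0.342 (0.274 to 0.425) in sparse ones. In 60 segments the interval of this ratio held that of all autosomes, in 10 it lay below, and in 4 it lay above, among them chr14:49000001-56000000 on 14q at 0.5 and chr20:31000001-50000000 on 20q at 0.432. The ratio of all autosomes includes members near large gaps, which the segments leave out. Without these members it was 0.377, below the interval of the dense segments. The segments were not counted against this lower value.

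**Figure D2:**
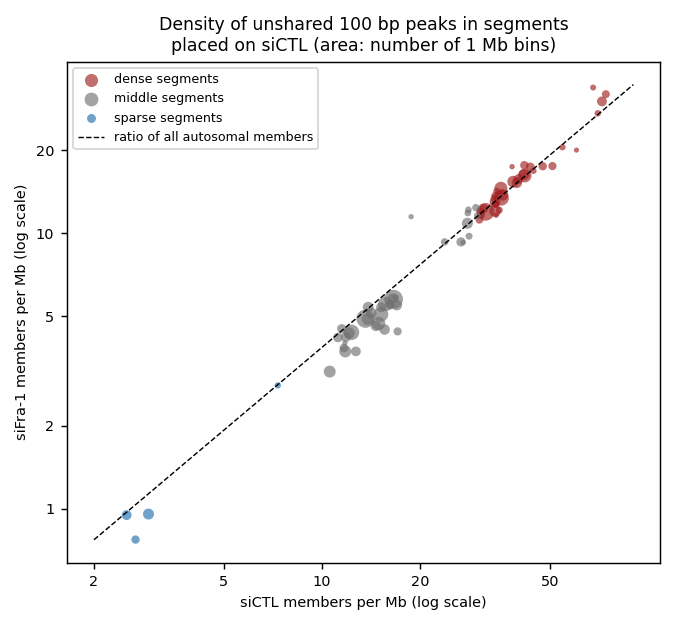
Members per Mb in each of the 74 segments in siCTL (x axis) and siFra-1 (y axis), both on a log scale, with point area growing with the number of 1 Mb bins and the dashed line at the ratio of all autosomal members, 0.386. Segments lie near the line from the sparse segments under 10 siCTL members per Mb up to 74.1.

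The segment of highest density was chr20:31000001-50000000 on 20q, with 74.1 siCTL and 32.03 siFra-1 members per Mb, where single bins ran from 46 to 105 in siCTL and from 21 to 43 in siFra-1. It was followed by chr1:86000001-120000000 on 1p, with 72.1 and 30.2 per Mb, by chr6:34000001-44000000 on 6p, with 70.0 and 27.3, and by chr14:49000001-56000000, with 67.7 and 33.9. All of these lay above the siCTL range of 26.7 to 47.4 that held most dense segments. The longest dense segments were less extreme. On 5q, chr5:51000001-180915260 held 31.7 siCTL and 11.98 siFra-1 members per Mb over 130 bins, chr10:44000001-135000000 on 10q held 35.4 and 13.4 over 91 bins, and chr3:1-73000000 on 3p held 41.8 and 16.2 over 73 bins.

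The sparse segments were on 7q, 18q and 9p. On 7q, chr7:67000001-111000000 held 2.94 siCTL and 0.957 siFra-1 members per Mb over 44 bins, of which none exceeded 9 siCTL members. On 18q, chr18:44000001-78000000 held 2.52 and 0.948 per Mb over 34 bins, with at most 8 siCTL members in a bin. On 9p, chr9:4000001-26000000 held 2.68 and 0.773 per Mb over 22 bins. It was less even, since its highest bin had 17 siCTL members. In the median bin of each of these 3 segments there was no siFra-1 member. The share of 32-base words that occur only once in the genome, an approximate measure of where reads can be placed, was 81.2%, 90.6% and 88.4% there, against 85.9% in all dense segments. The fourth sparse segment, chr9:37000001-46000000, was different, since only 22.5% of its words were unique.

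Along the arms, 35 boundaries separated adjacent segments, 19 with a rise and 16 with a fall towards the end of the long arm, on 23 arms. The number depends on the penalty for a boundary, and was 57 with 0.5 times and 27 with 2 times the penalty, and 28 with bins of 2 Mb. All 35 were steps of at least 1.5-fold in siCTL, with a median of 2.43-fold, which the placing of the boundaries on siCTL favours. The siFra-1 density changed in the same direction at 35 of 35, with a median of 2.65-fold, and by at least 1.5-fold at 34 of 35 (97.1%). The exception was the step on 3q at chr3:177000000, where siFra-1 density differed 1.42-fold (1.18 to 1.70). When each list was allowed to place the step on its own on a grid of 50 kb, the positions lay within 0.5 Mb of each other at 17 steps and within 1 Mb at 22, with a median of 0.55 Mb and a largest distance of 8.2 Mb.

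The 2 largest steps bounded the sparse segment of 9p. At chr9:26000000, density rose from 2.68 to 28.1 siCTL members per Mb and from 0.773 to 12.2 siFra-1 members per Mb, a siFra-1 difference of 15.8-fold (9.49 to 27.9). The nearest coding start, that of TUSC1, was 322 kb from this boundary. At chr9:4000000, density went down from 27.1 to 2.68 in siCTL and from 9.27 to 0.773 in siFra-1, which is 12-fold (6.59 to 22.7). Its nearest start, that of GLIS3, a transcription factor gene, was 348 kb away. The finer positions of the lists were equal for the step near GLIS3, at chr9:3600000 and so farther from that start, and 0.15 Mb apart for that near TUSC1.

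The third step, at chr1:86000000 on 1p, lay 44 kb from the start of DDAH1, which encodes an enzyme that degrades asymmetric dimethylarginine. Density rose there from 15.2 to 72.1 siCTL members per Mb and from 5.08 to 30.2 siFra-1 members per Mb, or 5.94-fold in siFra-1 (5.30 to 6.66), with the finer positions only 0.05 Mb apart. The fourth, at chr18:44000000 on 18q, 93 kb from the start of RNF165, was a fall from 11.7 to 2.52 in siCTL and from 3.83 to 0.948 in siFra-1, which is 4.04-fold (2.68 to 6.25). The fifth, at chr7:111000000 on 7q, 203 kb from the start of IMMP2L, was a rise from 2.94 to 11.8 in siCTL and from 0.957 to 4.20 in siFra-1, which is 4.39-fold (3.10 to 6.35). The finer positions of these last steps differed more between the lists, by 2.45 and 5.25 Mb.

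**Figure D3:**
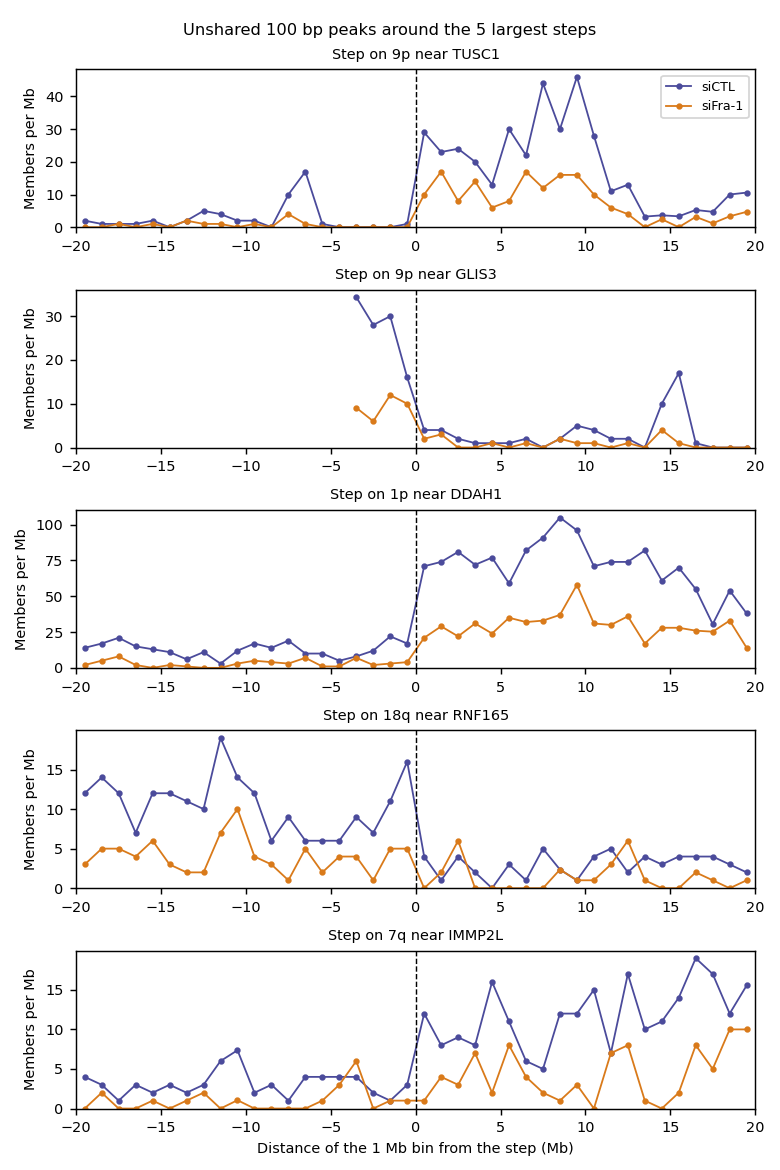
Members per Mb in 1 Mb bins (y axis) against the distance of the bin from the step in Mb (x axis, dashed line at the step) for the 5 largest steps, in siCTL (blue) and siFra-1 (orange), up to the end of the arm or 20 Mb. At the steps near TUSC1, GLIS3 and DDAH1 both lists change level at the step, the last from 15.2 to 72.1 siCTL members per Mb.

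Within the sparse segment of 9p, the stretch chr9:20729252-25158151, 4.43 Mb long, held no peak of any width in either list. It was picked as the longest such stretch, so its lack of peaks is a description. Unique words made up 88.6% of this stretch. It contains 24 protein-coding genes, among them CDKN2A and CDKN2B, which encode inhibitors of cyclin-dependent kinases, MTAP, an enzyme of methionine salvage, IFNB1 and the cluster of interferon alpha genes. The next longest stretches without any peak were 2.03 Mb on 7q, which contains the start of AUTS2, and 1.70 Mb on 9p.

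Of 27 genes given by their surroundings, with members counted in the 5 bins around the start site, 9 lay in dense segments, 15 in segments in between and 3, whose windows overlap, in sparse segments. Of all coding genes in segments, 47.3% lay in dense, 49.8% in intermediate and 2.92% in sparse ones. Among the 7 genes of AP-1 proteins, 5 lay in dense segments, and JUNB and JUND lay in the same one, so these counts are no result about the genes. Around FOSL1, the gene of Fra-1 itself, there were 54.8 siCTL members per Mb (48.5 to 61.7) and 25.0 siFra-1 members per Mb (20.8 to 29.8). Around FOSB, JUND, FOS and JUNB, siCTL density was 50.8, 47.7, 41.8 and 34.6 per Mb, and siFra-1 density was 22.2, 17.4, 13.8 and 17.4. FOSL2, the gene of Fra-2, had 24.4 siCTL members per Mb (20.3 to 29.1) and 5.80 siFra-1 members per Mb (3.88 to 8.33), and JUN had 11.2 and 4.60. For the acetyltransferase genes themselves, siCTL density was near the median bin, at 20.2 per Mb around EP300 and 17.8 around CREBBP.

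Among genes often altered in cancer, MYC and CCND1 had 44 and 43.9 siCTL members per Mb and 20.2 and 18.8 siFra-1 members per Mb, and the window of CCND1 shares 1 bin with that of FOSL1. PIK3CA (41.6) also lay in a dense segment, as did VIM (36.4), which encodes the mesenchymal filament protein vimentin. Lower siCTL densities were found around ERBB2 (24.0), NF2 (17.4), CDK4 (16.8), EGFR (15), FGFR1 (14.6), MDM2 (13.0), RB1 (12.4), BRAF (10.5) and MET (9.20). ESR1, the oestrogen receptor gene, had 13.4 and CDH1, the gene of E-cadherin, had 16.2. The windows of CDKN2A and MTAP are the same 5 bins, chr9:19000001-24000000, with 18 siCTL members and 1 siFra-1 member, none in the bin of the gene itself. That of CDKN2B, chr9:20000001-25000000, held 1 siCTL member and no siFra-1 member. Nearly all of the 18 therefore lay in the first bin of their window, away from these genes. The ratio of siFra-1 to siCTL members had an interval below that of all autosomes around 3 of the genes, namely FOSL2 (0.238, 0.153 to 0.359) and those in the shared window of CDKN2A and MTAP, and for none was it above. The share of such intervals over all windows of 5 bins was not computed, so this count is no result about the genes.

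**Figure D4:**
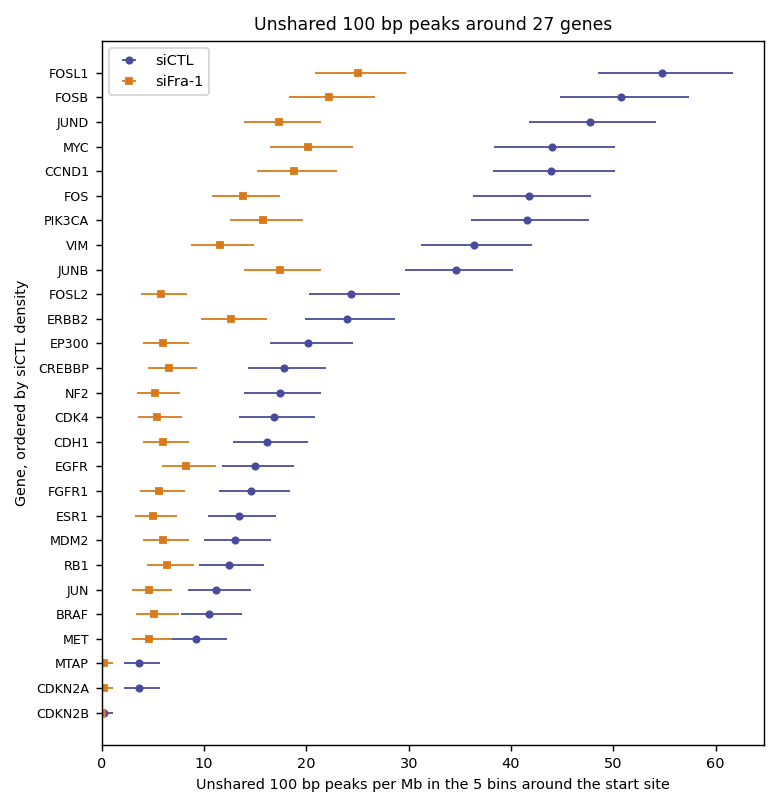
Members per Mb in the 5 bins of 1 Mb around the start site of 27 genes (x axis), ordered by siCTL density (y axis), for siCTL (circles) and siFra-1 (squares) with exact Poisson intervals. The genes run from CDKN2B, with 1 siCTL member in 5 Mb, to FOSL1, with 54.8 per Mb, and siFra-1 density is below siCTL density around each gene.

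Density rose with the number of protein-coding genes. Bins without a coding start site held 17.5 siCTL members per Mb (17.1 to 18.0) and 6.49 siFra-1 members per Mb (6.22 to 6.78), and bins with 20 or more start sites held 34.4 (33.6 to 35.2) and 13.5 (13.0 to 14.0). Bins with 1 to 4, 5 to 9 and 10 to 19 start sites lay in between, in this order, at 21.1, 25.3 and 30.3 in siCTL and 7.96, 9.54 and 11.1 in siFra-1. Single bins varied much within each class, since the middle 50% of bins without genes ran from 9 to 25 siCTL members per Mb and that of bins with 20 or more genes from 19 to 46. Over bins, Spearman's rho with the number of start sites was 0.304 in siCTL and 0.251 in siFra-1, and rho with GC content was 0.329 and 0.295.

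Gene content also differed between the segment classes. Dense segments held 8.67 coding genes per Mb, those in between 6.33 and sparse ones 5.10, while 31.7% of the bins without genes and 56.0% of the gene-richest bins lay in dense segments. There were clear departures from this order. The densest segment of 1p had 6.57 genes per Mb, fewer than the 10.1 of the adjacent chr1:1-86000000, which held 15.2 siCTL members per Mb. The sparse segment of 7q had 7.15 genes per Mb, and on 13q the dense chr13:76000001-94000000 had 1.34 genes per Mb with 30.4 siCTL and 11.2 siFra-1 members per Mb. After division by the segment level, bins without genes held 0.786 of their segment's siCTL density and 0.778 of its siFra-1 density, bins with 10 to 19 genes held 1.14 and 1.10 times that density, and bins with 20 or more held 1.12 and 1.14 times.

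**Figure D5:**
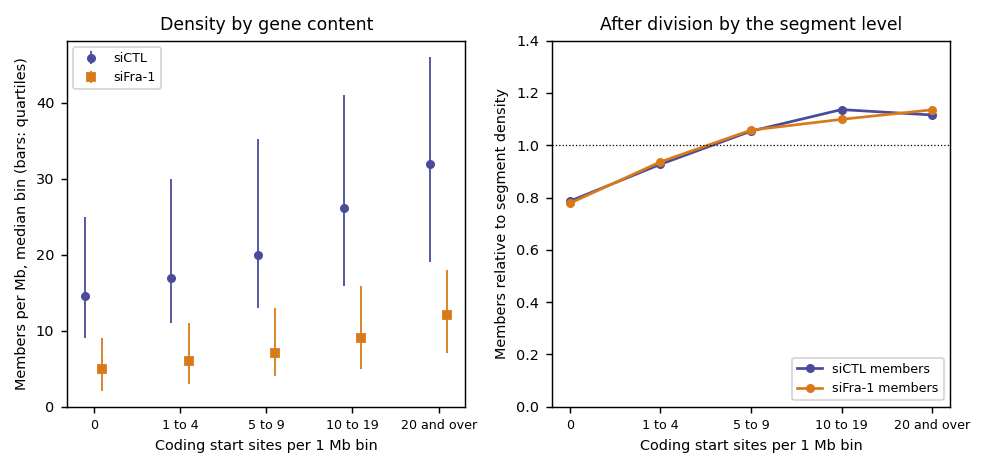
Left, members per Mb in the median 1 Mb bin, with quartiles as bars, by number of coding start sites per bin (x axis). Right, members relative to the density of their segment, with 1 as the dotted line, for siCTL (blue) and siFra-1 (orange); values run from 0.786 and 0.778 in bins without genes to 1.12 and 1.14 in bins with 20 or more, with the highest siCTL value, 1.14, in bins with 10 to 19.

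Inside the segments, members were denser near start sites. In windows of 3 kb centred on coding start sites there were 45.5 siCTL members per Mb (43.6 to 47.4) against 23.9 elsewhere, and 21.9 siFra-1 members per Mb (20.6 to 23.2) against 8.90. Relative to the density of their segments this was 1.67 times (1.60 to 1.74) in siCTL and 2.11 times (1.99 to 2.24) in siFra-1. These promoters held only 3.65% of the siCTL and 4.68% of the siFra-1 members. Over all exons, the promoter windows included, members were at 1.23 and 1.28 times the segment density, introns at 1.01 and 0.988, and sequence between genes at 0.943 and 0.973, so most members were spread over introns (58.8% in siCTL) and between genes (33.8%) at about the density of their segments.

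Peaks of at least 250 bp, called wide here, numbered 3598 in siCTL and 5887 in siFra-1 on the autosomes, so siFra-1 had the larger number of wide peaks and the smaller number of members. Wide peaks followed the segments too, but less closely. In siCTL there were 1.91 wide peaks per Mb (1.83 to 1.999) in dense segments, 0.890 (0.842 to 0.939) in those in between and 0.380 (0.273 to 0.516) in sparse ones, and in siFra-1 there were 2.92, 1.57 and 0.603. Members per wide peak therefore went down from 20.5 in dense to 17.5 and 8.12 in sparse segments in siCTL, and from 5.24 to 3.47 and 1.75 in siFra-1. Segments were placed and classed on siCTL members and not on wide peaks. This favours a fall in siCTL and a looser relation of wide peaks to the segments. The siFra-1 members were not used for placing. At the 35 steps, wide peaks of siCTL changed in the direction of the members at 33 and wide peaks of siFra-1 at 28, counting any difference. At the 2 largest steps, both on 9p, siCTL members differed 10.5- and 10.1-fold. Wide peaks of siCTL there were at 0.591 per Mb in the sparse segment (13 peaks), against 0.818 (9 peaks) and 1.00 (4 peaks) beside it. Those of siFra-1 were at 0.364 (8 peaks), against 1.73 (19 peaks) and 1.00 (4 peaks). Over segments, member and wide peak density had a Spearman rho of 0.813 in siCTL and 0.788 in siFra-1, and over bins 0.455 and 0.456.

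Members also gathered around wide peaks of their own list. Within 10 kb of a wide peak there were 58.9 siCTL members per Mb against 23.6 elsewhere, a difference of 2.5-fold, and 31.2 siFra-1 members per Mb against 8.41, or 3.71-fold. Against the density of their segments this was 1.95 times (1.88 to 2.02) in siCTL and 2.82 times (2.71 to 2.92) in siFra-1. The excess was larger where the level was lower: in siFra-1 it was 2.53 times in dense segments, 3.79 times in those in between and 9.60 times in sparse ones, the last from 13 members (5.11 to 16.4). Members near wide peaks were 5.24% of all siCTL and 11.1% of all siFra-1 members in segments.

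Near large assembly gaps the lists differed from the rest of the genome. Within 1 Mb of gaps of at least 1 Mb there were 39.2 siCTL members per Mb against 24.4 elsewhere, and 29.2 siFra-1 members per Mb against 9.21. The ratio of siFra-1 to siCTL members there was 0.745 (0.690 to 0.806), from 1520 siCTL and 1133 siFra-1 members, above the 0.386 of all autosomes. These bins were left out of the segments.

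In sequence, members were richer in GC than the genome, at 44.5% ± 9.90 (SD, n = 66100) in siCTL and 45.1% ± 9.88 (SD, n = 25496) in siFra-1, against 41.0% ± 10.6 (SD) over all windows of 100 bp on the same grid. An AP-1 site was found in 2.05% of siCTL members (1.94 to 2.16), in 2.45% of siFra-1 members (2.26 to 2.64) and in 1.502% of all windows. Nearly all members of both lists therefore held neither of these words. The windows were not matched to the members in GC content or in distance from start sites or wide peaks. Among the segment classes, the share of members with a site was lowest in dense segments. The segment of highest density, on 20q, had 2.35% in siCTL, above the dense class, and 1.81% in siFra-1, below it. In siCTL it was 1.964% in dense segments, 2.26% in those in between and 2.70% in sparse ones, with intervals that overlapped between neighbouring classes, and in siFra-1 it was 2.22% (2.002 to 2.46), 3.04% (2.68 to 3.43) and 7.89% (4.21 to 14.3), the last from 9 of 114 members. Over all windows it was 1.523%, 1.496% and 1.486% in the same classes. A match of these letters is a description of the sequence and not evidence of AP-1 binding.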

How the data were processed

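Occupancy of p300/CBP was measured in 2 libraries, 1 per condition, each from pooled immunoprecipitations. Per the study's methods, the authors aligned reads to hg19 with BWA (the submitters' processing notes name Bowtie instead), computed signal with PASHA and took peaks by thresholding in the Integrated Genome Browser. The names deposited with the lists add that uniquely placed reads were used, in steps of 50 bp, with scaling and background subtraction, and hold the peak settings 25, 50 and 50, read here as threshold, gap and run in bp. A further processing parameter, whose meaning is not stated in the sources used here, differed between the lists. The deposited lists give only positions in bp, without height or read count. Scaling and a fixed threshold act on single bins, so library depth or enrichment can change the number of peaks of the minimum width, and neither was recovered here.

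Printed starts are the deposited ones plus 1, which is 1 bp too many if the deposited ones already count from 1. The members, lists and rules were chosen with earlier results of these data known. Counts used GRCh37 without N, arms split at the last N run of at least 2.9 Mb, GENCODE release 44 lifted to that build, Python 3.11.15, numpy 2.4.6, pandas 2.3.3, scipy 1.17.1 and matplotlib 3.10.9. Segments came from Poisson change points by dynamic programming (at least 3 bins, penalty 3 times the log of the number of bins times the dispersion). On simulated bins, 12 of 12 planted steps of 2.5-fold, 12 of 12 of 0.2-fold and 7 of 11 of 1.8-fold were recovered within 2 bins, with 3 extra. The planted steps lay singly in the middle of arms. Several steps on an arm, short segments and steps under 1.8-fold were therefore not covered. Overlaps were also counted with bedtools 2.31.1, with equal results. Unique words were counted as 32-mers, sampling 1 in 32. Densities have exact Poisson intervals, ratios Clopper-Pearson and shares Wilson intervals, all at 95%, and no p-value is given.

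The genes named were 27 loci from a list (others of it, and some of the members' sequences, are not reported here), the 3 highest and 3 lowest arms, the 3 longest dense and sparse segments and the 5 largest steps with the nearest coding start. Other segments, the 3 further segments of highest density, the limits of the groups of segment levels, the step below 1.5-fold, the departures from gene density and the stretches without peaks were chosen after their values were seen. A member in an untranslated exon was left out of the printed sequences.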

Additional observations from a re-analysis of the deposited data

Results flagged for a closer look

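Outside the autosomes, 355 unshared peaks of 100 bp lay on chromosome X in siCTL and 149 in siFra-1. They were noted because they are the same kind of peak in data that the comparisons above leave out. No density or ratio was computed for them.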

How the results depend on the processing

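The ratio of siFra-1 to siCTL members, 0.386, was 0.361 without members that had a peak of the other list within 500 bp, 0.376 without members near another peak of their list, 0.394 with peaks of 150 bp included and 0.377 without members near gaps. Bins of 0.5 Mb made 23.2% of bins sparse in siCTL, and 32.004% dense and 37.3% sparse in siFra-1, while bins of 2 Mb made 13.3% sparse in siCTL, and 36.8% dense and 21.8% sparse in siFra-1. With limits farther from the median (2 times for dense), 17.5% of bins were dense and 7.12% sparse in siCTL, and 23.2% and 15.7% in siFra-1. Steps numbered 35, and 57 with 0.5 times the penalty, all of which had the same direction in siFra-1. The Spearman coefficient between the lists over bins was 0.738 with 0.5 Mb bins, 0.894 with 2 Mb bins and 0.440 after division by the segment mean, which moved that with genes in siCTL to 0.389. With wide peaks of at least 150 bp, it was 0.739 in siCTL and 0.601 in siFra-1, and with at least 500 bp 0.349 and 0.387. The fold near wide peaks was 1.92 and 2.35 within 50 kb, and 1.95 and 2.82 against the segment density. The excess of AP-1 sites over all windows, 0.546 and 0.945 percentage points, was 0.983 and 1.73 in windows of 200 bp, and 1.19 in siFra-1 with TGANTCA. The causes of these changes were not tested. No value changed direction, and 31 further values moved by less than their interval or limit. Densities per unique word, densities against the segment level near wide peaks, and the finer step positions were chosen after seeing the data. Alternatives with a repeat mask, and the repeat share of members, were not run, because the reference used here carries no such mask. No paired analysis was possible because each condition had 1 library, and none could be left out. Absence of a peak depends on the threshold and on a depth that is unknown, so it is not absence of signal.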

Other observations

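The siFra-1 members, which were fewer (25496 against 66100), left longer stretches empty than the siCTL members. The stretches below were picked as the longest without a siFra-1 member, so the siCTL counts in them are a description. The longest was chr18:66152652-72663301, 6.51 Mb on 18q with 16 coding genes, among them NETO1, SOCS6 and CYB5A, where siCTL had 14 members. The next, chr7:83655002-90033101, was 6.38 Mb on 7q with ABCB1 and ABCB4, which encode transporters of lipids and drugs, and SEMA3A and SEMA3D, which encode guidance proteins, and siCTL had 19 members there. The short arm of chromosome 21, with 1.43 Mb of known sequence, was not among the arms compared, and held 143 siCTL and 118 siFra-1 members, a ratio of 0.825 (0.641 to 1.06).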
